A study of Homo sapiens with 4 samples.

Results

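The ATP-binding cassette (ABC) transporters were examined in PLC8024 cells, an established human hepatocellular carcinoma line. Flow cytometry had divided the line into cells with and cells without surface CD133, a glycoprotein used to enrich tumour-initiating cells. A list of 37 ABC genes was used, and a gene entered when the platform annotation assigned at least 1 probe set to it alone. That held for 35 of the 37 genes, among 19775 genes measured in all, and ABCA10 and ABCC6 were not analysed here. Each gene was represented by its probe set with the highest mean value over both populations.

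There was 1 CD133+ and 1 CD133- population of this one line, with no other treatment or genotype named. Both were deposited in 2 processings of the array signal, log2 values from RMA and linear intensities from MAS5. The 2 processings are not replicates, so every comparison below sets 1 value against 1 value. No difference was tested, none has an error between cultures, sorts or arrays, and no p-value is given. In these bulk samples, fewer cells that carry a transcript and less of it per cell cannot be told apart.

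ABC proteins bind and hydrolyse ATP through a conserved pair of nucleotide-binding domains, and most use that energy to move a substrate across a membrane. In the liver they export bile salts, phospholipid, sterols and conjugated drugs, and some of the same pumps lower the drug content of tumour cells. A few members transport nothing: ABCE1 and the ABCF proteins act on ribosomes, and ABCC8 and ABCC9 regulate a potassium channel.

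The sort and the cell type were checked first. PROM1, which encodes CD133, read 10.35 in CD133+ against 6.04 in CD133- (RMA). All 8 measured hepatocyte markers of 9 listed were above the median of all probe sets, with summed MAS5 intensities of 139436 in CD133+ and 157912 in CD133-. Of these, 3 were lower in CD133+ by 2-fold or more in both processings (ALB, AFP and APOA1). Of markers of other cells, PTPRC, the pan-leukocyte antigen, was below that median at RMA values of 3.01 and 2.94. The leukocyte markers MS4A1 and CD14 were below it too, while CD3E was above it at 5.85 and 5.78. Leukocyte markers as a list (5 measured of 7) summed to 10478 in CD133+ and 4181 in CD133-, nearly all of it from LYZ, and endothelial markers (5 of 5) to 303 and 959, mostly from PECAM1. LYZ was 3.31-fold higher in CD133+ by RMA and 2.56-fold by MAS5, and PECAM1 was 3.38-fold and 3.41-fold lower. The other endothelial genes, CDH5, VWF, KDR and TEK, were below the median in both populations. Fibroblast and stellate markers (6 of 6 measured, 3 above the median) summed to 902 and 547, erythroid markers (2 of 4) to 210.1 and 173.7, and epithelial markers (4 of 4) to 35560 and 36757. KRT18 and KRT8 carried most of the epithelial sum, while CDH1, or E-cadherin, was 6.99-fold higher in CD133+ by RMA values of 9.43 and 6.62 and 7.30-fold by MAS5. The epithelial marker EPCAM was below the median at an RMA value of 3.43 in both populations, with MAS5 intensities of 75.7 and 24.1. The part of these markers in the differences below was not tested.

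Most ABC genes had close values in the 2 populations. A gene was called above the floor when its higher RMA value reached the median of all probe sets in that column, 5.16 in CD133+ and 5.14 in CD133-. Counting a gene required a value above the floor and a difference of 2-fold or more, with one sign, in RMA as well as MAS5. Of the 35 ABC genes 26 were above the floor, 24 of them in both populations. None was counted as higher in CD133+, and 1, ABCA8, was counted as lower. The background over the 13116 genes above the floor was 2.25% higher, 1.09% lower and 3.34% in either direction, and the ABC counts were near it.

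Over all 35 genes the median RMA difference, CD133+ minus CD133-, was -0.03 on the log2 scale, against 0.00 over all 19775 genes. The median MAS5 log2 ratio was -0.22, against 0.01. The RMA difference was below 0 in 19 ABC genes, above 0 in 13 and exactly 0 in 3. That is 54.3% below 0, where all genes had 46.4%. In MAS5, 23 of the 35 were below 0, or 65.7% against 49.2% of all genes. An absolute RMA difference of 0.5 or more was seen in 4 ABC genes, ABCA8, ABCB1, ABCB9 and ABCA5, each lower in CD133+. Their share of 11.4% is close to the 11.9% of all genes.

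The size of scatter between probe sets was read from genes with a pair of probe sets above the floor. Over 6170 such genes the gap between the pair had an SD of 0.35 for RMA differences and of 0.79 for MAS5 log2 ratios. Among the 13 ABC genes with such a pair these SDs were 0.34 and 0.86. An RMA difference below about that size is therefore within the scatter between probe sets of a single gene, and this scatter leaves out cultures and sorts. Of the 35 ABC genes 24 had an absolute RMA difference under 0.25.

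**Figure D1:**
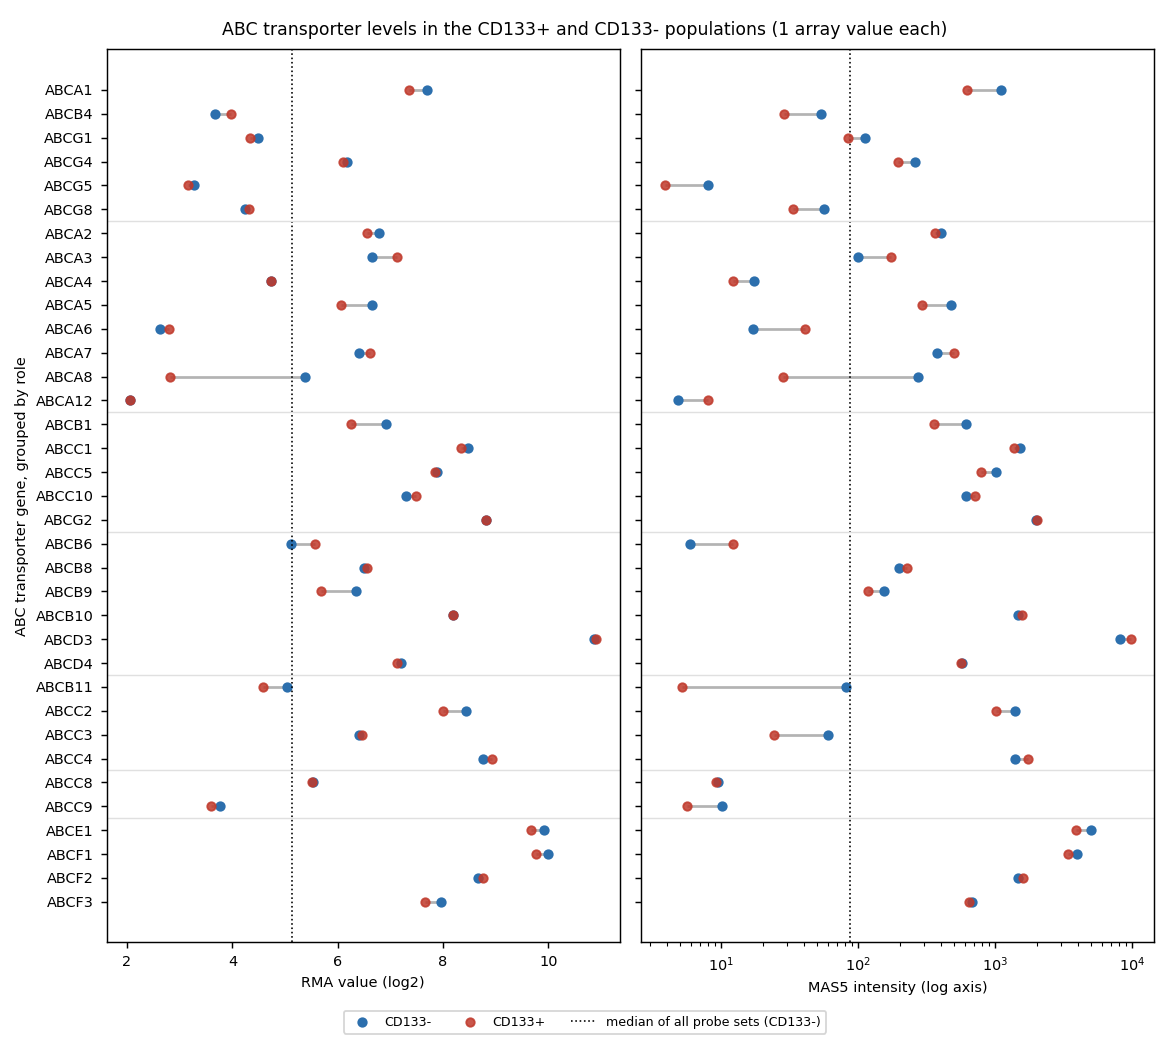
RMA values (left, log2) and MAS5 intensities (right, log axis) of the 35 ABC genes in CD133+ (red) and CD133- (blue), grouped by role. Each point is 1 deposited value and the dotted line is the median of all probe sets in CD133-. The points of most genes lie close together, while those of ABCA8 lie on opposite sides of the line in both panels.

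Of the exporters of sterol and phospholipid, ABCA1 was the one with a sizeable signal and a lower value in CD133+. ABCA1 loads cellular cholesterol and phospholipid onto apolipoprotein A-I. It read 7.36 in CD133+ against 7.69 in CD133- by RMA, with MAS5 intensities of 619 and 1095. The difference was -0.33 in RMA and -0.82 in MAS5, or 1.26-fold and 1.77-fold lower. A second ABCA1 probe set above the floor had RMA values of 6.78 and 8.01, a difference of -1.23, and MAS5 intensities of 523 and 1055, a log2 ratio of -1.01. On that probe set ABCA1 would pass the 2-fold rule, so the call for this gene depends on which probe set stands for it. The gap of 0.89 between both RMA differences was the largest among the 13 ABC genes with a pair above the floor.

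The promoter of ABCA1 is shown because this gene is a textbook target of the sterol-sensing liver X receptors (LXR), whose paired sites lie in it. The 250 bases before the RefSeq start are given, 5′ to 3′ on the gene's strand, from chr9:104928156-104928405 of GRCh38.p14, minus strand. Capitals mark matches, on either strand, to the GC box GGGCGG, the CCAAT box CCAAT, the E box CACGTG, the TATA box TATAAA and a partly degenerate LXR-type direct repeat.
ABCA1: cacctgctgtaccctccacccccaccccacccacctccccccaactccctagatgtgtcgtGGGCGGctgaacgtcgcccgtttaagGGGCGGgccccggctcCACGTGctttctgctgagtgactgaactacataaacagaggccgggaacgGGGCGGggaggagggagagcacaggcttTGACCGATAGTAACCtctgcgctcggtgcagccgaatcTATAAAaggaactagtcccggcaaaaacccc
The direct repeat matched once, as TGACCGATAGTAACC on the reverse strand, at bases 69 to 55 before the start, and the TATA box at bases 31 to 26. Of 30 ABC genes with a promoter in the RefSeq table, ABCA1 was the 1 gene that held this repeat, which 0.271% of all 27305 genes in the table held. ABCA1 was chosen for its known LXR sites, so this match was foreseeable and the low share lends it no weight. The GC box was present in 63.3% of the 30 and in 46.2% of all genes. The shares over the table, here and below, were not limited to measured or protein-coding genes. A match is a description of letters and was not tested as a binding site. ABCA4, ABCA8, ABCB4, ABCC1, ABCC3, ABCC8 and ABCG1 had no entry.

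One receptor gene was measured, NR1H3, which encodes LXR alpha, and it had an RMA difference of -0.05, with a MAS5 log2 ratio of -0.28. MYLIP, another LXR target, which targets the LDL receptor for degradation, had RMA values of 6.26 and 7.15 and MAS5 intensities of 62.3 and 311, lower in CD133+ in both but short of 2-fold in RMA. SREBF1, a sterol-sensing factor, changed sign between the processings, at -0.14 in RMA and 0.17 in MAS5. Of the acceptors, APOA1, the partner of ABCA1, was counted as lower at 3.48-fold, while APOE stood at 0.11 in RMA and 0.21 in MAS5. Further apolipoprotein genes went both ways, with APOC1 at 0.56 and 0.75 and APOA2 at -0.71 and -0.37. Whether LXR targets were lower as a set was not tested. NR1H3, SREBF1, APOE, APOC1 and APOA2 were picked out after their values were seen.

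The remaining sterol exporters had low signals. ABCG4, which exports sterol to lipoproteins in the nervous system, had RMA values of 6.11 and 6.17 and MAS5 intensities of 195 and 261. ABCG1, which delivers cholesterol to HDL particles, was below the floor at 4.33 and 4.49. ABCG5 and ABCG8 form one transporter that excretes sterols into bile. They were below the floor, at RMA values of 3.17 and 3.26 for ABCG5 and of 4.32 and 4.23 for ABCG8. The liver's phosphatidylcholine floppase ABCB4 was below it as well, with differences of opposite sign in RMA (0.30) and MAS5 (-0.89). All 6 genes of this group had a MAS5 log2 ratio below 0, and 4 of 6 an RMA difference below 0.

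The other listed A-subfamily lipid transporters, all except ABCA1, held the 1 counted ABC gene. ABCA8, which has been linked to cholesterol efflux and HDL levels, read 2.82 in CD133+ against 5.37 in CD133- by RMA, and 28.3 against 272 in MAS5 intensity. The RMA difference was -2.55 and the MAS5 log2 ratio -3.26. No fold is given, because the CD133+ value was under the floor. The CD133- value was above its own floor by 0.23, so ABCA8 passed through the population where it was higher, and it exceeded the CD133+ floor by 0.21. Its other 2 probe sets were below the floor in both populations, with RMA differences of -0.13 and -0.23.

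ABCA8 lies in a row of related genes on chromosome 17, in the RefSeq order ABCA8, ABCA9, ABCA6, ABCA10 and ABCA5. This order was looked up after the values were seen. ABCA9 and ABCA6 were below the floor, with RMA differences of 0.32 and 0.16, opposite in sign to ABCA8. ABCA5, a lysosomal and endosomal lipid transporter at the far end of the row, had RMA values of 6.06 and 6.64 and MAS5 intensities of 291 and 475, which is 1.49-fold and 1.63-fold lower in CD133+. The other ABCA5 probe set, below the floor, had a difference of -0.14. Of the 10 measured genes nearest to ABCA8, 5 on each side, none was counted in either direction, and their median RMA difference was -0.00, or -0.40 for those above the floor.

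ABCA3 went the other way. This transporter loads surfactant lipid into lamellar bodies in the lung. RMA gave 7.13 in CD133+ and 6.65 in CD133-, and MAS5 172 and 98.6, so that ABCA3 was 1.39-fold and 1.75-fold higher in CD133+. It has 1 probe set, and the RMA difference of 0.47 is larger than the SD between paired probe sets but below 2-fold. ABCA7, a phospholipid transporter linked to phagocytosis, was 1.16-fold higher by RMA values of 6.62 and 6.41, with MAS5 intensities of 499 and 373. ABCA2, an endolysosomal lipid transporter, was 1.18-fold lower by RMA values of 6.55 and 6.79, with MAS5 intensities of 363 and 403. The photoreceptor flippase ABCA4, ABCA6 and the skin lipid transporter ABCA12 were below the floor, and ABCA4 and ABCA12 had identical RMA values in both populations.

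**Figure D2:**
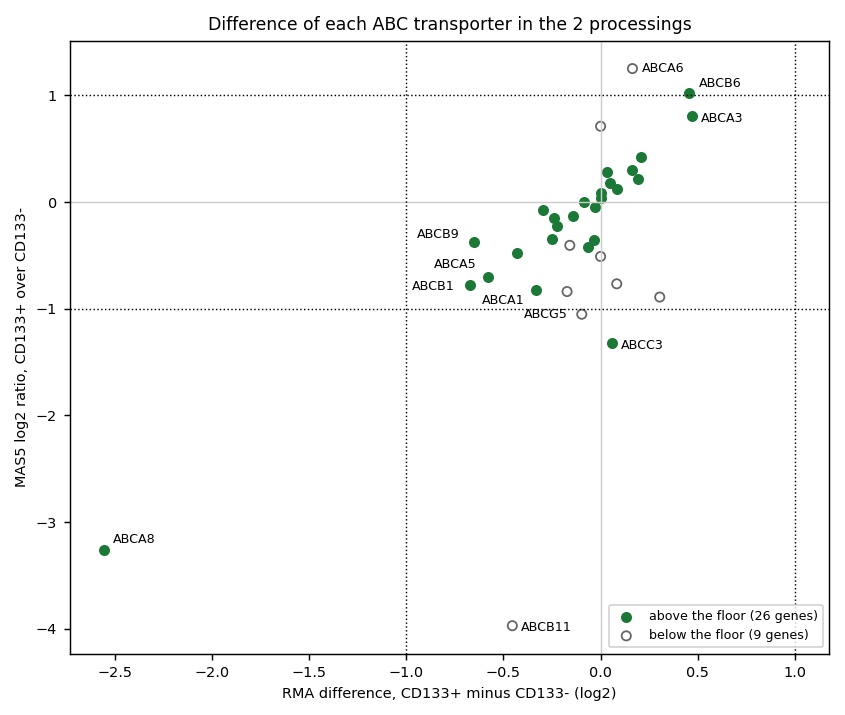
RMA difference (horizontal axis) against MAS5 log2 ratio (vertical axis) for the 35 ABC genes, CD133+ against CD133-, with filled points above the floor and open points below it. Dotted lines mark 2-fold. ABCA8 is the one gene past 2-fold in both, ABCA6, ABCB6, ABCB11, ABCC3 and ABCG5 pass it in MAS5 alone, and the other filled points lie between -0.67 and 0.47 in RMA.

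Among the pumps known for multidrug resistance, ABCB1 was the member with the larger difference, and it was lower in the CD133+ population. ABCB1, or P-glycoprotein, expels a wide range of hydrophobic drugs. It read 6.24 in CD133+ against 6.92 in CD133- by RMA, with MAS5 intensities of 356 and 609. The difference was -0.67 in RMA and -0.77 in MAS5, which is 1.59-fold and 1.71-fold lower. ABCB1 thus missed the 2-fold rule. At 1.5-fold in both processings it would be counted with ABCA8. Of the 13116 genes above the floor, 4.17% met that rule as lower and 5.32% as higher. Its other probe set, below the floor, was lower by RMA (-0.25) and by MAS5 (-0.18).

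ABCG2, the breast cancer resistance protein that marks side-population cells by dye efflux, had RMA values of 8.82 in both populations and MAS5 intensities of 2025 and 1970. The difference was 0.00 in RMA and 0.04 in MAS5, from 1 probe set. ABCC1, which exports glutathione conjugates, had RMA values of 8.34 and 8.48 and MAS5 intensities of 1379 and 1509, and its second probe set had RMA values of 7.20 and 7.21. ABCC5, an exporter of cyclic nucleotides, had 7.84 and 7.88, with MAS5 intensities of 787 and 1007. ABCC10, a broad drug exporter of the same subfamily, had RMA values of 7.49 and 7.30 and MAS5 intensities of 711 and 612, and its second probe set, at 6.79 and 6.62, had nearly the same difference (0.17 against 0.19). These 4 pumps differed by less than 0.20 in RMA, below the SD of paired probe sets. None of the 5 multidrug pumps was counted in either direction.

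The ABCB1 promoter is shown because its gene had the largest RMA difference among the drug pumps and because of the neighbourhood described next. It has 2 starts in the RefSeq table, and the 250 bases before the downstream one, the start used in most tissues, are given from chr7:87600885-87601134 of GRCh38.p14, minus strand, with capitals as for ABCA1.
ABCB1: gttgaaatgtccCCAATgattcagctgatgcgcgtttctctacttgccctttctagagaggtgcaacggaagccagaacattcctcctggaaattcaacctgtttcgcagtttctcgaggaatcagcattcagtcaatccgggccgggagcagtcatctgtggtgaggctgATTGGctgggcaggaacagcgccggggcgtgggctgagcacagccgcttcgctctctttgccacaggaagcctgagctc
CCAAT boxes matched at bases 238 to 234 on the forward strand and at bases 79 to 75 on the reverse strand. Of the 30 ABC genes with a promoter 9 held a CCAAT box, where 37.0% of all genes did. Neither the GC box as spelled above nor the E box, TATA box or LXR-type repeat matched in this window.

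Most genes around ABCB1, 8 of 10, had higher values in CD133+ in both processings, while ABCB1 itself was lower. Over all 19775 genes, 7346 had higher values in both. For every ABC gene the 5 nearest measured protein-coding genes on each side were taken in RefSeq order (GRCh38.p14), a step added after the values were seen. Around ABCB1, on chromosome 7, 4 of these 10 genes passed the rule upward and 0 downward, with a median RMA difference of 0.83. Those counted were TMEM243, with RMA values of 10.07 and 8.49, ELAPOR2 at 2.53-fold, SLC25A40 at 2.30-fold and DBF4, the regulatory subunit of the CDC7 replication kinase, at 2.22-fold. SRI, which encodes the calcium-binding protein sorcin, had RMA values of 12.39 and 11.49 and MAS5 intensities of 23537 and 11908, which is 1.88-fold and 1.98-fold. CROT, a peroxisomal carnitine acyltransferase, was 1.68-fold higher in RMA and 2.26-fold in MAS5.

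The immediate neighbours of ABCB1 differed from those farther out. ABCB4 lies on one side and was below the floor. RUNDC3B on the other side had RMA values of 7.14 and 7.38, with a difference of -0.25, and its second probe set had one of -0.31. Of 18 probe sets above the floor for the neighbours other than ABCB4, 16 had an RMA difference above 0, and the exceptions were both of RUNDC3B. Of those 16, 3 passed the floor through CD133+ alone, where they were higher, and of the 15 probe sets at the floor in both populations 13 had an RMA difference above 0. Over all genes at the floor in both populations, 47.7% had a difference above 0. Several of these probe sets belong to the same gene, ADAM22 most of all, and are not separate support. Over the 16273 genes with 5 measured neighbours on each side, 0.0983% (16 genes) had 4 or more neighbours counted as higher, and windows of nearby genes overlap. ABCB4, whose window overlaps that of ABCB1, also had 4.

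**Figure D3:**
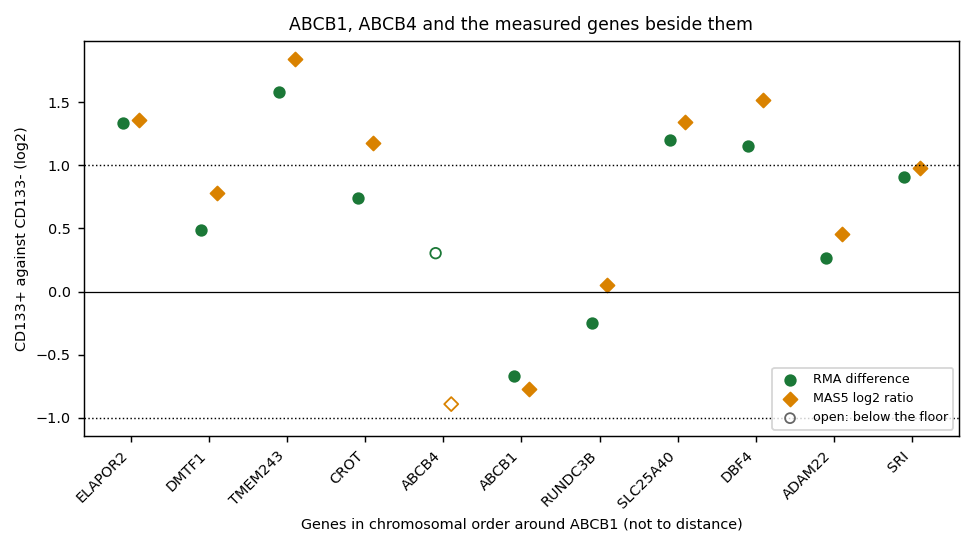
RMA difference (circles) and MAS5 log2 ratio (diamonds), CD133+ against CD133-, for ABCB1, ABCB4 and the measured genes beside them, in chromosomal order and not to distance; open symbols are below the floor. The 8 genes that lie above 0 in both processings flank ABCB4, ABCB1 and RUNDC3B, which do not lie above 0 in both, with ABCB1 at -0.67 and -0.77.

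The windows of a few other ABC genes also leaned to one side. ABCD3 and ABCA4 lie near each other on chromosome 1, where the neighbours above the floor had a median RMA difference of -0.52 around each, while ABCD3 had 0.03, and the 2 windows share most of their genes. The neighbours of ABCC4 on chromosome 13 above the floor had a median of 0.62, with 2 of 10 counted as higher, against 0.16 for ABCC4. The neighbours of ABCB9 on chromosome 12 had a median of -0.43, beside -0.65 for ABCB9 itself. In 22 of the 35 windows no neighbour was counted, which is 62.9%, against 78.6% of all windows.

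Of the organic anion and bile salt pumps of the hepatocyte, ABCC2 and ABCC4 had clear signals. ABCC2 exports bilirubin glucuronides and drug conjugates across the canalicular membrane. By RMA it read 8.003 in CD133+ against 8.43 in CD133-, with MAS5 intensities of 1003 and 1401, which is 1.35-fold and 1.40-fold lower from a single probe set. ABCC4, a basolateral exporter of bile salts and cyclic nucleotides, had RMA values of 8.93 and 8.77 and MAS5 intensities of 1717 and 1397. Its RMA difference of 0.16 stood beside 0.06, -0.11 and 0.14 in its other 3 probe sets. ABCC4 therefore had no direction shared by its probe sets.

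ABCC3 and ABCB11 show where both processings part. ABCC3, a basolateral exporter of glucuronides, had RMA values of 6.46 and 6.40, but MAS5 intensities of 24.1 and 60.4, under the MAS5 column medians of 86.0 and 86.1. Over its 5 probe sets the RMA differences ran from -0.12 to 0.34, and the MAS5 log2 ratios from -1.32 to 0.68. The low MAS5 signal was that of the chosen probe set. Another ABCC3 probe set above the floor had MAS5 intensities of 174 and 123, over both medians, and a log2 ratio of 0.50. ABCC3 therefore had no MAS5 direction shared by its probe sets. ABCB11, the bile salt export pump, was below the floor at 4.58 and 5.03. Its MAS5 intensities of 5.15 and 80.8 give a log2 ratio of -3.97, which rests on values under the column median on both sides. No fold is given for it, and its second probe set had a difference of 0.08 in RMA.

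The promoter of ABCC2 is shown for comparison with those of ABCA1 and ABCB1, as another exporter of the cell surface that was above the floor and lower in CD133+ in both processings by more than 0.25. It is taken from chr10:99782390-99782639 of GRCh38.p14, plus strand.
ABCC2: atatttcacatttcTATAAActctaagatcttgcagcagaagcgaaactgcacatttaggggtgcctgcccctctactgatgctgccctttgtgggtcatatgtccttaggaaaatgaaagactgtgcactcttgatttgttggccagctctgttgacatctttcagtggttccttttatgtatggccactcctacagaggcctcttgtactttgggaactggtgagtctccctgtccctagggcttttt
The 1 match in this window was to the TATA box, at bases 236 to 231, and none of the other spelled motifs matched. The 3 promoters thus had no motif of this set in common.

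Transporters of mitochondria, lysosomes and peroxisomes mostly had close values. ABCD3, which imports fatty acids into peroxisomes, had RMA values of 10.91 and 10.87 and MAS5 intensities of 9796 and 8063. ABCB10, a mitochondrial carrier needed for haem synthesis, had an RMA value of 8.20 in both, and MAS5 intensities of 1556 and 1466. ABCD4, which moves cobalamin out of lysosomes, had 7.12 and 7.21 in RMA and 565 and 567 in MAS5. ABCB8, a mitochondrial transporter linked to iron export, had 6.55 and 6.501 in RMA and 225 and 199 in MAS5, and a second probe set at RMA values of 5.97 and 5.52, a difference of 0.44. These genes were not counted, and their chosen probe sets differed by less than 0.10 in RMA.

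ABCB9 and ABCB6 had larger differences in opposite directions. ABCB9, a lysosomal peptide transporter, had RMA values of 5.69 and 6.34, which is 1.57-fold lower in CD133+, and MAS5 intensities of 118 and 153, which is 1.30-fold lower. Its second probe set above the floor gave -0.28 by RMA but 0.30 by MAS5, so the sign was not shared. ABCB6, a porphyrin transporter, had RMA values of 5.57 and 5.11, the second of them under the floor, and MAS5 intensities of 12.1 and 5.94. These are far under the MAS5 column medians, so the log2 ratio of 1.03 sets low values against each other. With ABCC3 and ABCC8, ABCB6 makes 3 genes whose chosen probe set was above the RMA floor but under the MAS5 median in both populations.

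The sulphonylurea receptors had low signals. ABCC8 pairs with the channel subunit KCNJ11 in pancreatic beta cells, and had RMA values of 5.503 and 5.53 with MAS5 intensities of 9.11 and 9.39. Its second probe set was higher in CD133+, with RMA values of 5.21 and 4.85, the second under the floor, and MAS5 intensities of 43.3 and 16.0. ABCC9, the receptor of muscle cells, which pairs with KCNJ8, was below the floor at 3.59 and 3.77. KCNJ11 and KCNJ8 were below it too, at RMA values of 4.28 and 4.03 for KCNJ11 and of 3.71 and 3.996 for KCNJ8.

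The ABC proteins without membrane domains had strong signals that were slightly lower in CD133+ in 3 of 4 genes. ABCE1, which splits ribosomes after termination, had RMA values of 9.67 and 9.91 and MAS5 intensities of 3886 and 4954. Its second probe set gave 9.03 and 9.18. ABCF1, which takes part in translation initiation, had 9.76 and 9.99 in RMA and 3390 and 3955 in MAS5. ABCF3 had 7.66 and 7.96 in RMA and 641 and 676 in MAS5. ABCF2 had 8.75 and 8.67 in RMA and 1586 and 1460 in MAS5. The RMA differences ran from -0.30 to 0.08 and were under the SD of paired probe sets in each of the 4 genes.

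**Figure D4:**
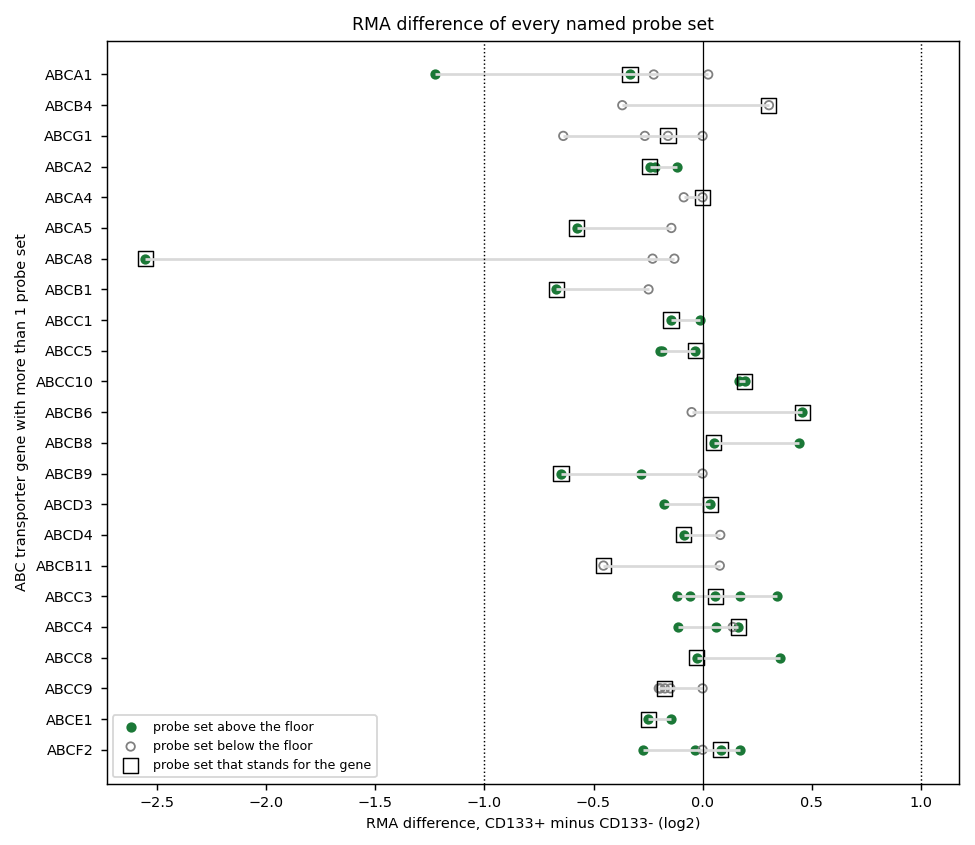
RMA difference, CD133+ minus CD133-, of every named probe set of the 23 ABC genes that have more than 1, with squares around the probe set that stands for the gene. ABCA1 has a second probe set above the floor at -1.23, while the other probe sets of ABCA8 lie near 0 and below the floor.

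Genes that work with the transporters were taken from 13 lists of 172 genes, of which 152 were measured and 122 were above the floor and could be counted. Of the 122, 2 were counted as higher in CD133+ and 5 as lower, where all genes above the floor had 2.25% and 1.09%. EHHADH and MYO5B, 1 in each direction, passed the floor through the population where they were higher. The median RMA difference of the 152 was -0.03, and list medians below are also of RMA differences unless MAS5 is named. The list of xenobiotic and sterol sensing transcription factors also held MYLIP, which is not such a factor. This list had no counted gene among 16 measured and a median of -0.08. Its largest differences above the floor were those of MYLIP, at -0.89, and PPARG, a lipid-sensing nuclear receptor, at -0.42. AHR, the dioxin receptor that induces drug-metabolising genes, had 0.13, and NFE2L2, the oxidative stress factor NRF2, had -0.34, both picked out after their values were seen.

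Uptake and exchange carriers had a median of 0.28 over 16 measured genes, 6 of them above the floor. In MAS5 the median was 0.13, with 8 genes above 0 and 8 below. SLC15A1, a proton-coupled carrier of small peptides and peptide-like drugs, was the counted one, with RMA values of 7.33 and 5.49 and MAS5 intensities of 807 and 195, 3.59-fold and 4.13-fold higher in CD133+. Bile acid enzymes had no counted gene among 14 and a median of 0.01. CYP27A1, which starts the alternative route of bile acid synthesis, had RMA values of 7.12 and 6.45 but MAS5 intensities of 509 and 43.0, and SLC27A2, a fatty acid carrier and ligase, had a difference of 0.41.

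The genes of sterol acceptors, uptake and storage had 2 of 16 counted as lower, APOA1 and SCARB1, and a median of -0.09. SCARB1 encodes the HDL receptor SR-BI, and had RMA values of 10.12 and 11.43, 2.47-fold lower in CD133+. Of 13 canalicular lipid and polarity partners, 1 was lower. This was MYO5B, the motor that carries canalicular transporters to the apical membrane, with RMA values of 4.75 and 6.70 and MAS5 intensities of 22.2 and 448, and the CD133+ value under the floor. RDX, or radixin, which anchors ABCC2 at the canaliculus, was lower by 2.02-fold in RMA and 1.90-fold in MAS5, just short of the rule. It was named after its values were seen.

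Organelle partners were mostly uncounted. Peroxisomal partners had 1 counted in each direction among 11. EHHADH, a beta-oxidation enzyme, was higher with RMA values of 6.22 and 4.72, the CD133- value under the floor, and ACOX2, the oxidase of bile acid intermediates, was 2.06-fold lower with 9.05 and 10.09. The 13 haem and iron-sulphur partners had none, with ALAS1, the first enzyme of haem synthesis, at -0.75 and GLRX5 at 0.41. The 9 cobalamin partners also had none, with CD320, the cobalamin uptake receptor, at 0.66 and the methionine synthase MTR at 0.44.

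Translation partners had a median of -0.15 in RMA and -0.07 in MAS5, and none was counted. Of the 12, 11 were below 0 in RMA and 8 in MAS5, or 91.7% and 66.7%. All 12 were at the floor in both populations, and of all such genes 50.3% and 49.7% were below 0. EIF3B, a subunit of an initiation factor, and GCN1, an activator of the amino acid response kinase GCN2, had differences of -0.63 and -0.62. Lamellar body and skin lipid partners had none of 8 counted, with LPCAT1 at -0.33 and SFTPB at 0.26. The potassium channel list had none of 5, with TRPM4 at -0.63 and KCNH2 at -0.04. Of 17 enzymes that make conjugates for the pumps, SULT1A1, a sulphotransferase, was counted as lower at 3.14-fold. TAP1 and TAP2, the ABCB-subfamily pumps that bring peptides to MHC class I, are outside the list of 37. Their RMA differences were 0.77 and 0.48, higher in CD133+ in both processings and not counted.

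**Figure D5:**
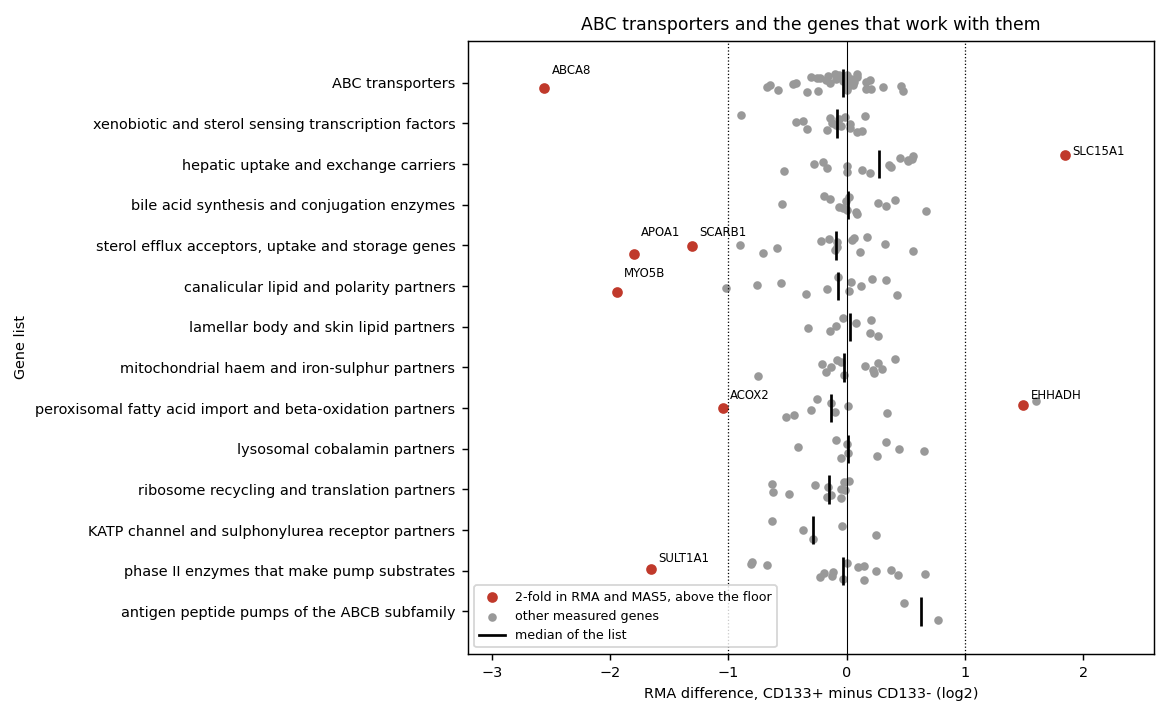
RMA difference, CD133+ minus CD133-, for the measured genes of the ABC list and of each partner list; red points passed the 2-fold rule and the black bars are list medians. The ABC median lies at -0.03 and the medians of the partner lists between -0.29 and 0.62.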

How the data were processed

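Biotin-labelled RNA of 1 CD133+ and 1 CD133- population was read on oligonucleotide arrays, giving 54675 probe sets. The authors deposited MAS5 intensities on a linear scale and RMA values on the log2 scale, as 2 samples per population. Per the submitters' processing notes the tools were GCOS, MAS5 and RMA. Their versions, the genome build and the set of arrays normalized together are not stated in the labels.

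Genes were assigned to probe sets through the annotation of the platform, with 41097 assigned to 1 gene, 1801 to several and 11777 to none, and symbols were updated through RefSeq (GRCh38.p14). Differences, the 2-fold count and the floor were computed with pandas 2.3.3 in Python 3.11.15, and the counting was checked on simulated data. Both values were printed for members above the floor, for those with an RMA difference of at least 0.5, and for ABCB1, ABCC1 and ABCG2; from each partner list the counted members are named or, where none was, the 2 largest above the floor. ABC genes, lists and rules were chosen with earlier results of these data known. Their number, 1 array value per population, limits the precision. Which array gave each value is not stated, and alternatives to the floor, fold, probe set choice and processing were tried.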

Additional observations from a re-analysis of the deposited data

How the results depend on the processing

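No paired analysis was possible because each population has 1 value per processing, and for the same reason no replicate could be left out. With a 2-fold difference in MAS5 alone, 1 ABC gene was counted as higher (ABCB6) and 2 as lower (ABCA8 and ABCC3). The lower count was 0 with the floor at the 75th percentile, with the median over all named probe sets of a gene, and with the floor on the mean RMA value (added after the data were seen), and it was 2 at 1.5-fold, with ABCB1. ABCA8 stayed the 1 lower gene under the other 6 settings tried, and the higher count stayed 0 under all settings but MAS5 alone. Several of these 6 could not drop ABCA8. Using RMA alone or no floor only loosens the rule, and the chosen ABCA8 probe set is neither _x_at nor _s_at. Asking that MAS5 also reach its column median was added after the data were seen. The ABC median ran from -0.07 to 0.00 in RMA and from -0.37 to -0.04 in MAS5. All settings for partner genes and for the genes near ABCB1 were added after the data were seen. Partner genes counted as higher were 1 with the floor at the 75th percentile or the median over probe sets and 5 at 1.5-fold, against 2. Those counted as lower were 8 in MAS5 alone, 14 at 1.5-fold and 2 once _x_at and _s_at probe sets were left out, against 5. The 2 that stayed were ACOX2 and SCARB1, while APOA1, MYO5B and SULT1A1 were no longer counted. The genes near ABCB1 counted as higher were between 4 and 6. Over all genes, MAS5 alone gave 1004 higher and 735 lower and 1.5-fold 698 and 547, against 295 and 143. The cause of these shifts was not tested. Of 98 recomputed values of 26 ABC genes, 92 moved by less than the SD of paired probe sets, but many of them could not move. Centring left RMA differences unchanged because the all-gene median was 0. The median over probe sets leaves genes with 1 probe set unchanged. The 1 counted gene, ABCA8, kept its sign. With the median over probe sets, ABCC8 went from -0.03 to 0.16 and ABCD3 from 0.03 to -0.07 in RMA. Among the values that moved by more than the SD were those of ABCA8, at -0.23 in RMA with the median over probe sets, and ABCB9, at 0.00 without _x_at and _s_at probe sets. Without replicates and detection calls, low signals such as those of ABCB11 cannot be told from background.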

Other observations

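ABC genes with low signals leaned to the CD133- side, more in MAS5 than in RMA. Among the 10 with a mean RMA value under the floor, 8 had a MAS5 log2 ratio below 0 and the median ratio was -0.80, against 0.04 over the 6972 genes with means as low. The median RMA difference of the same 10 was -0.05, against 0.02, and 50% of them were below 0 in RMA, against 39.7%. The 25 ABC genes with a mean RMA value at or above the floor had medians of -0.08 in MAS5 and -0.03 in RMA, against 0.00 in both over 12803 genes.

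The E box CACGTG was found in the 250 bases before a start in 7 of 30 ABC genes, or 23.3%, against 7.73% of the genes in the RefSeq table. They were ABCA1, ABCA12, ABCB6, ABCB9, ABCC10, ABCF1 and ABCG2. Their RMA differences lay on both sides of 0, at -0.33 for ABCA1, -0.65 for ABCB9, 0.46 for ABCB6 and 0.19 for ABCC10. Some of these genes have several starts in the table, and any start with a match was counted.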
